A study of Mus musculus with 6 samples.

Results

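The histone genes are the core histones H2A, H2B, H3 and H4 and the linker histone H1, found among the array's probe sets by their gene symbols. Every probe set whose single annotated symbol matched a set pattern of mouse histone names was kept. The pattern took the older Hist1h to Hist4h names and the present H1f, H1-, H2ac, H2bc, H3c and H4c names. It also took H2af, H2ax, H2av, H2az, H2aj, H2bu and H3f. The symbols H2aw, H2ap, H2al2a, H2al3, H2bl1 and H2bfm lay outside it. This gave 28 probe sets for 19 genes, of 45037 probe sets and 18193 genes with a probe set of their own. All 45037 probe sets were tested. By family they were 9 probe sets of H1, 10 of H2A, 4 of H2B and 5 of H3. The H4 genes were read only by probe sets annotated with several genes, which are outside the rule and are described separately.

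The arrays compared 3 samples of a mouse haematopoietic progenitor clone under 1 µg/ml doxycycline with 3 samples of the same clone 48 h after doxycycline was taken away, here called withdrawal. All 6 came from the myeloid clone C6 on the Rosa26rtTA C57BL/6J background, which carries the vector pRRL.TET.Evi1.IRES.EGFP, so doxycycline drives a codon-optimized murine Evi1 together with EGFP, and the series text calls the clone dependent on Evi1. All were grown in S3F11 medium with mSCF (50 ng/ml), mIL-3 (20 ng/ml), hFlt3 ligand (50 ng/ml) and hIL-11 (50 ng/ml). The data are from 1 clone, and the labels do not say that the samples are separate cultures, so p-values measure only how far these 3 and 3 arrays scatter, which may be technical scatter.

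Each nucleosome wraps DNA around an octamer of H2A, H2B, H3 and H4, and linker H1 binds where the DNA enters and leaves. Most copies are made in S phase from clustered replication-dependent genes without introns, whose mRNAs end in a conserved stem-loop in place of a poly(A) tail. Replacement variants such as H3.3 and H2A.Z come from other genes with polyadenylated mRNAs and are made through the cell cycle. A further group of H1 genes serves the germ cells. The labels name an amplification of total RNA to cDNA without saying how it was primed, so how fully the arrays represent mRNAs without a poly(A) tail is unknown here.

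The promoters below are examples from both classes. They are the 200 bases before the RefSeq start of H3c4, H1f2 and H3f3b, which rose after withdrawal, and of H3c11, a further H3 gene with its own probe set. Capitals mark matches, on either strand, to a TATA element (TATANA, whose matches can overlap one another) and the CCAAT box (CCAAT). They also mark the octamer DNA element (ATTTGCAT), here called the octamer, and the H1 box (AAACACA). Coordinates are on GRCm38.p6. H3c4 lies on the plus strand at chr13:23575563-23575762, H1f2 on the plus strand at chr13:23738607-23738806, H3f3b on the minus strand at chr11:116024505-116024704 and H3c11 on the minus strand at chr13:21783398-21783597.
H3c4: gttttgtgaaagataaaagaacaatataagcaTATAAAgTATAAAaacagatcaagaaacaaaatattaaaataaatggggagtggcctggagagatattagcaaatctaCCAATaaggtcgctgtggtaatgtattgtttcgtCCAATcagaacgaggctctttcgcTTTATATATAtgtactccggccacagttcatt
H1f2: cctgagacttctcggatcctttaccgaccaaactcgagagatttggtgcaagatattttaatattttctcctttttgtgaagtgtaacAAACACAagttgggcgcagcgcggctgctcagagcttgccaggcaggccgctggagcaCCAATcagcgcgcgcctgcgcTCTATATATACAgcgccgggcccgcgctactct
H3f3b: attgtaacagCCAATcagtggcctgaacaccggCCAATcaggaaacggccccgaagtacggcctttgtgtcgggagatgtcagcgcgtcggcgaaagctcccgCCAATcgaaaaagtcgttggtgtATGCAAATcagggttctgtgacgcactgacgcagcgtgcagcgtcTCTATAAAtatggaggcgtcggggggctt
H3c11: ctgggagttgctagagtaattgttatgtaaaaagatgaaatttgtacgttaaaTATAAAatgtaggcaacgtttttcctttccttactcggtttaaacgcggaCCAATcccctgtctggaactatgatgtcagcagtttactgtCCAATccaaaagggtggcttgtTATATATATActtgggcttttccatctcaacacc
Of the 19 member genes, 16 had a promoter in the table, and H3c7, H2bc21 and H2ax did not. A TATA element was found in 7 of the 16 and in 65.5% of the 58 replication-dependent histone promoters of the table, against 18.2% of all 32851 promoter windows. The CCAAT box was found in 14 of the 16, in 82.8% of the 58 and in 29.3% of all windows. The octamer was in 2 of the 16, in 22.4% of the 58 and in 1.38% of all windows, and 1 of the 2 is H3f3b, which carries it on the reverse strand. The H1 box was in 4 of the 16, in 12.1% of the 58 and in 4.80% of all windows, and H1f2 is 1 of the 4. Among the replacement genes with a promoter, only H3f3b had a TATA element or the octamer. H3f3a, H2az1, H2az2 and H2aj had the CCAAT box, as did H3f3b, and H1f10 had no match. These matches describe the letters of the windows and were not tested against expression.

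After doxycycline was withdrawn, 4 of the 28 histone probe sets rose and 1 fell at an adjusted p under 0.05 (limma, Benjamini-Hochberg over all probe sets). Those that rose read H3c7, H3c4, H1f2 and H3f3b, by 0.46 to 1.12 on the log2 scale, and the 1 that fell read H2bc21, by 0.57. Of all probe sets tested, 0.79% rose and 1.18% fell. Read as genes, each from its brightest probe set, 4 of 19 rose and 1 fell, beside 1.2% and 1.57% of all genes. The median difference was -0.001 over the 28 probe sets and 0.01 over all probe sets, so the centre of the family lay close to that of the array, and RMA would remove a shift shared by most transcripts. Differences are withdrawal minus doxycycline in log2 units with their standard error from limma, and levels are not compared between probe sets because probes differ in brightness.

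Group values did not overlap for 7 probe sets that were higher and 2 that were lower, and overlapped for the other 19. Of all probe sets tested, 10.2% were higher without overlap and 10.7% lower. Of the 28, 21 lay above the median level of all probe sets, and these include all 5 that passed. An unadjusted p under 0.05 was found for 9 of the 28 and for 14.3% of all probe sets.

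**Figure D1:**
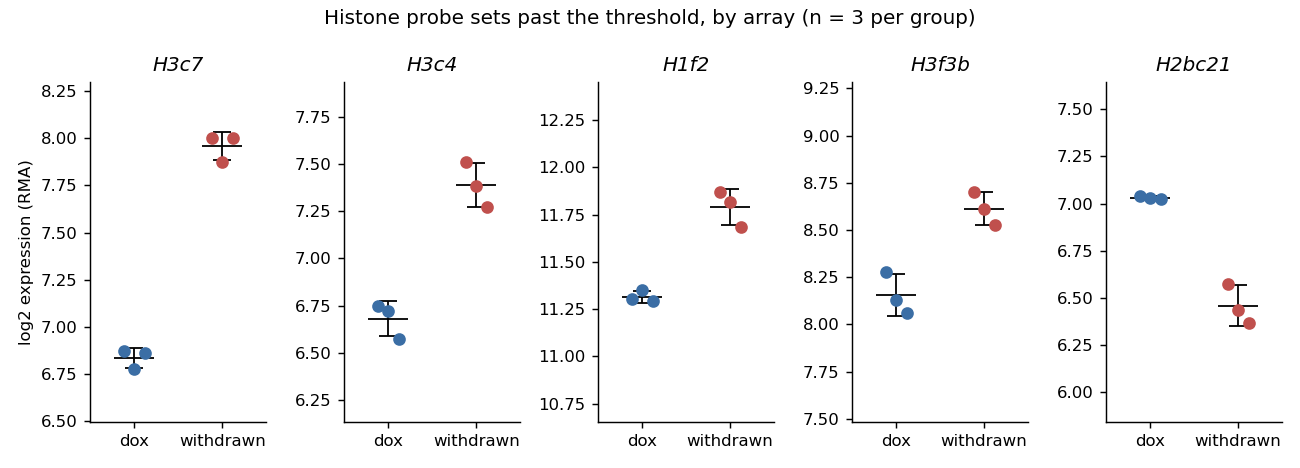
Log2 expression (RMA) of the 5 histone probe sets past the threshold, with 1 point per array, the group mean and 1 SD (n = 3 per group) and a separate axis range for each panel, all spanning an equal number of log2 units. The withdrawal arrays lie above the doxycycline arrays for H3c7, H3c4, H1f2 and H3f3b and below them for H2bc21, with no overlap.

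Of the 28, the largest rises were read for H3 genes. H3c7 and H3c4 both encode H3.2, a replication-dependent H3 laid down behind the fork. H3c7 read 6.87, 6.78 and 6.86 under doxycycline and 8.00, 7.88 and 8.00 after withdrawal. The 3 withdrawal arrays were nearly level with one another and all lay over 1 log2 unit above the highest doxycycline array. The means were 6.84 ± 0.05 and 7.96 ± 0.07 (SD, n = 3), a rise of 1.12 ± 0.07 (95% interval 0.96 to 1.28) or 2.18-fold with an adjusted p of 0.000523. H3c7 stayed past the threshold with any 1 array left out, with adjusted p up to 0.00653.

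H3c4 read 6.75, 6.72 and 6.58 under doxycycline and 7.51, 7.38 and 7.27 after withdrawal. No withdrawal array came near the doxycycline range. The rise was 0.71 ± 0.09 (0.51 to 0.91), 1.63-fold, with an adjusted p of 0.00893, which became 0.0529 without the third doxycycline array. H3c11, which encodes H3.1, read 4.79, 4.32 and 4.93 under doxycycline and 5.39, 5.23 and 5.11 after withdrawal. Its groups did not overlap either, but the doxycycline arrays were spread widely and the probe set was dim, at the 46.0 percentile of all levels. Its difference of 0.56 ± 0.16 (0.19 to 0.93) did not pass, with an adjusted p of 0.156.

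H3.3, the replacement H3 deposited independently of replication, is encoded by H3f3a and H3f3b with the same protein product. H3f3b read 8.28, 8.13 and 8.06 under doxycycline and 8.70, 8.61 and 8.53 after withdrawal, a rise of 0.46 ± 0.08 (0.26 to 0.65), 1.37-fold, with an adjusted p of 0.043. Its groups were separate, yet the call was lost with any 1 of the 6 arrays left out, where adjusted p reached 0.17. H3f3a read 7.17, 7.25 and 7.18 under doxycycline and 7.26, 7.21 and 7.12 after withdrawal. These overlapped, and the difference had an interval of -0.16 to 0.16 (adjusted p 0.996). The difference between the responses of the 2 genes was not tested.

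H1f2 encodes H1.2, a somatic linker histone. Its brightest probe set read 11.30, 11.35 and 11.29 under doxycycline and 11.87, 11.82 and 11.68 after withdrawal. The groups were well apart, with a rise of 0.47 ± 0.07 (0.30 to 0.64), 1.39-fold, and an adjusted p of 0.0235. That call held in only 1 of the 6 fits with an array left out, the one without the third withdrawal array, and adjusted p reached 0.116 in the other 5.

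The other probe sets of H1f2 did not pass. One read 10.35, 10.30 and 10.18 under doxycycline and 10.94, 10.65 and 10.45 after withdrawal, without overlap, a difference of 0.40 ± 0.13 with an adjusted p of 0.194. The other was dimmer and overlapped between groups, at -0.06 ± 0.27 (adjusted p 0.951). Its interval of -0.69 to 0.56 holds the estimates of both brighter probe sets. The mean of the 3 gave 0.27 with an adjusted p of 0.229.

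The other 5 H1 genes gave 6 probe sets with differences of -0.07 to 0.15, overlapping groups and adjusted p of at least 0.593. They include the replication-dependent H1f4 at 0.15 ± 0.12 and the replacement H1f10, or H1X, at 0.14 ± 0.10. The germ cell genes H1f6 and H1f7 of the testis and H1f8 of the oocyte were read by 4 dim probe sets, between the 7.0 and 49.5 percentiles of all levels. None of these 4 passed the test in this fit, with differences of -0.07 to 0.09.

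Among the H2B genes the one that fell was H2bc21, formerly Hist2h2be, an H2B gene best known from olfactory neurons. It read 7.04, 7.03 and 7.02 under doxycycline and 6.58, 6.44 and 6.37 after withdrawal. The doxycycline arrays lay within 0.03 of one another and all above the withdrawal arrays. H2bc21 fell by 0.57 ± 0.07 (-0.74 to -0.40), 1.49-fold lower, with an adjusted p of 0.0121. The call was lost without any 1 doxycycline array or without the second withdrawal array, with adjusted p up to 0.0702.

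The probe set of this call carries the suffix s, which the manufacturer gives to probes shared by transcripts of different genes, although the annotation names only H2bc21. The gene's plain probe set read 6.08, 6.35 and 6.18 under doxycycline and 6.14, 5.93 and 5.56 after withdrawal, with overlap and a difference of -0.33 ± 0.15 (adjusted p 0.382). The mean of both gave -0.45 with an adjusted p of 0.0549. H2bc18 and H2bc22 differed by 0.01 ± 0.08 and 0.04 ± 0.08 and did not pass. The probe set of H2bc18 was dim, at the 35.7 percentile of all levels.

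None of the 10 probe sets of the H2A genes passed, and 2 of them had an unadjusted p under 0.05. Their differences ran from -0.26 to 0.24. The brightest gene, H2az1, encodes the replacement variant H2A.Z, found at promoters, and read 13.34, 13.17 and 13.33 under doxycycline and 13.17, 13.17 and 13.43 after withdrawal. The groups overlapped throughout, at -0.03 ± 0.10 (-0.25 to 0.20). The 4 probe sets of H2az1 and H2az2 had adjusted p of 0.922 to 0.997. H2ac19, a replication-dependent H2A gene of the same cluster as H2bc21, differed by -0.02 ± 0.07 and -0.09 ± 0.09 on its probe sets, with overlap on both.

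The H2A variants nearest to a difference were H2ax and H2aj. H2ax, whose product is phosphorylated at DNA breaks, read 10.15, 10.39 and 10.32 under doxycycline and 10.56, 10.59 and 10.44 after withdrawal, without overlap. Its difference of 0.24 ± 0.08 had an adjusted p of 0.243, and passed at 0.0495 only when eBayes was run with the trend and robust options. H2aj, a replacement H2A, had estimates on its 3 probe sets of -0.13 ± 0.07, -0.17 ± 0.07 and -0.26 ± 0.22, with groups apart for the middle estimate only and adjusted p of 0.472, 0.3 and 0.662.

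**Figure D2:**
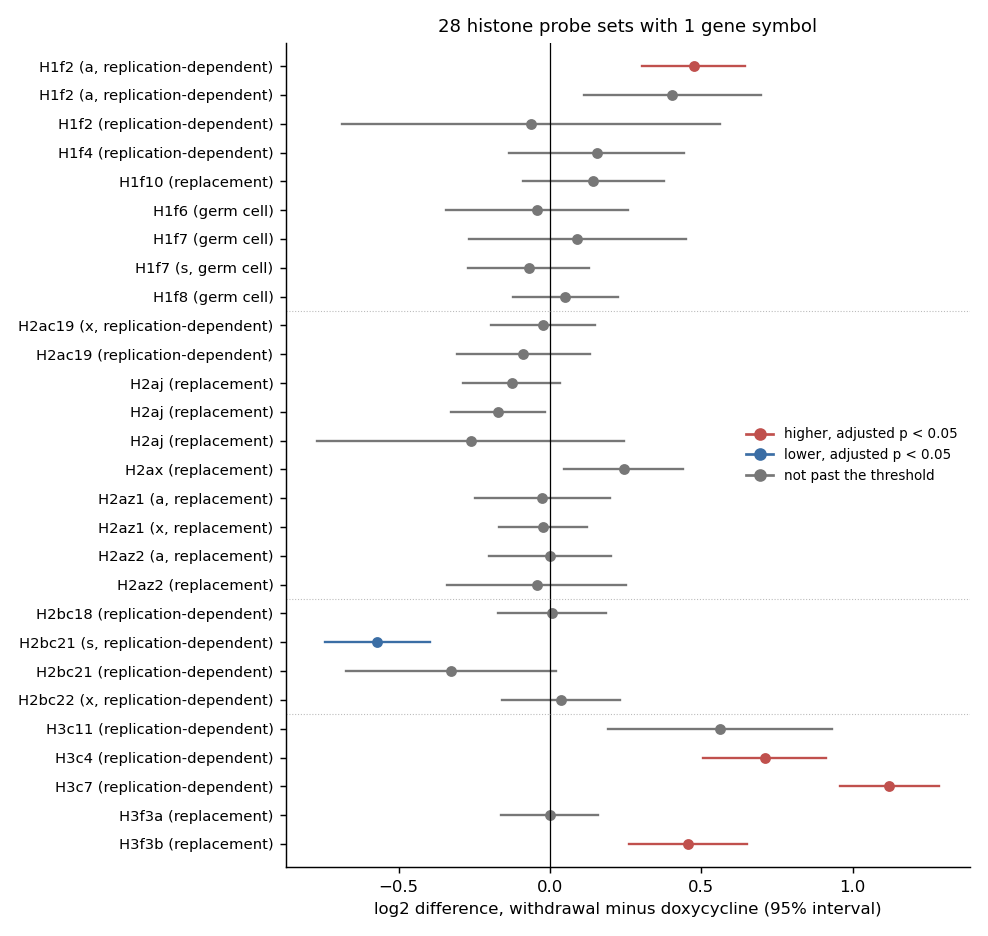
Difference of each of the 28 histone probe sets (withdrawal minus doxycycline, log2) with its unadjusted 95% interval from limma (n = 3 per group), ordered by family. Brackets hold the letter of the probe set suffix and the class, which was assigned from the gene symbol alone. Red marks the 4 that rose (H3c7, H3c4, H1f2 and H3f3b), blue the 1 that fell (H2bc21) and grey the 23 that did not pass.

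Classes were assigned from gene symbols alone, and H2bc21, which fell, was counted as replication-dependent in this way. By class, 3 of the 13 replication-dependent probe sets rose and 1 fell (median difference 0.04). Of the 11 replacement probe sets 1 rose (median -0.02). Among the 4 germ cell ones 0 passed, with 0 at an unadjusted p under 0.05. Over all probe sets tested, 0.79% rose and 1.18% fell. Of the 5 probe sets that passed, 3 were plain, 1 had the suffix a for transcripts of one gene and 1 the suffix s. The 3 probe sets with the suffix x, some of whose probes may cross-hybridise, did not pass.

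Genes of the same cluster did not all pass. In the RefSeq order, H3c7 and H3c4 lie on chromosome 13 with 7 coding genes between them, all histones, and H3c4 and H1f2 have 8 between them, of which 7 are histones. H3c11 and H2bc22 lie on the same chromosome with 1 gene between them. On chromosome 3, H2bc21, which fell, has 1 histone gene between it and H2ac19 and 6 between it and H2bc18, and neither of those passed. H2bc18 was read by a dim probe set, which bounds it weakly.

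A further 25 probe sets are annotated with several genes of which at least 1 is a histone, and none of them names a single gene. Of these, 2 rose, 0 fell and 23 did not pass, where 0.79% of all probe sets rose and 1.18% fell. By unadjusted p, 3 of the 25 were under 0.05, beside 14.3% of all probe sets. In 5 the withdrawal arrays were higher without overlap and in 3 lower, beside 10.2% and 10.7% of all probe sets.

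Replication-dependent H3 transcripts were read by 5 such sets, and those sets did not show a rise of the size read for H3c7. Only the brightest stood high, at the 86.6 percentile of all levels. The others were dimmer, between the 44.5 and 58.5 percentiles. The brightest, annotated with 12 genes, read 9.00, 8.90 and 9.08 under doxycycline and 9.03, 9.02 and 9.17 after withdrawal, with overlap. Its difference was 0.08 ± 0.08 (-0.10 to 0.26). The 5 sets ran from 0.01 to 0.16 with adjusted p of 0.619 to 0.983, and the highest interval bound was 0.48. These sets and the single-gene probe sets may read overlapping transcripts, and the difference between them was not tested.

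H4 was read by 5 probe sets annotated with 13 genes each. The brightest read 9.56, 9.52 and 9.61 under doxycycline and 9.50, 9.56 and 9.56 after withdrawal. The values of the groups were interleaved. This set lay at the 90.0 percentile of all levels and another at the 75.8. The rest were dim, between the 12.3 and 38.5 percentiles, and bound a change of H4 weakly. The 5 sets differed by -0.08 to 0.07, with adjusted p of 0.792 to 0.968 and the widest interval from -0.24 to 0.38. The 5 sets of H3.3, annotated with 6 genes or pseudogenes each and among the brightest on the array (98.8 to 99.5 percentile), differed by -0.03 to 0.13, with adjusted p of 0.544 to 0.987, and the highest interval bound was 0.31. The interval at the single-gene probe set of H3f3b was 0.26 to 0.65. Upper bounds of the H3.3 sets were 0.12, 0.17 and 0.20, which lie below it, and 0.27 and 0.31, which lie within it. The difference between these sets and that probe set was not tested.

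The probe sets that rose both read H2B genes. One, annotated with 6 genes, read 5.90, 5.51 and 5.60 under doxycycline and 6.49, 6.50 and 6.35 after withdrawal. All withdrawal arrays were higher, by 0.78 ± 0.11 (0.52 to 1.03) or 1.71-fold, with an adjusted p of 0.0166, which was lost in 4 of the 6 fits with an array left out (up to 0.0904). The other, annotated with 2 genes, read 5.17, 5.14 and 5.13 under doxycycline and 5.55, 5.57 and 5.53 after withdrawal, a rise of 0.41 ± 0.06 with an adjusted p of 0.0215 that was lost in 5 of the 6 fits (up to 0.114). By contrast the H2B set annotated with 11 genes read 10.74, 10.74 and 10.80, then 10.70, 10.74 and 10.76, a difference of -0.02 (adjusted p 0.916). The H2A set annotated with 10 genes, near the top of the array's range, read 14.36, 14.23 and 14.32, then 14.41, 14.39 and 14.48, a difference of 0.13 that did not pass (adjusted p 0.471).

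**Figure D3:**
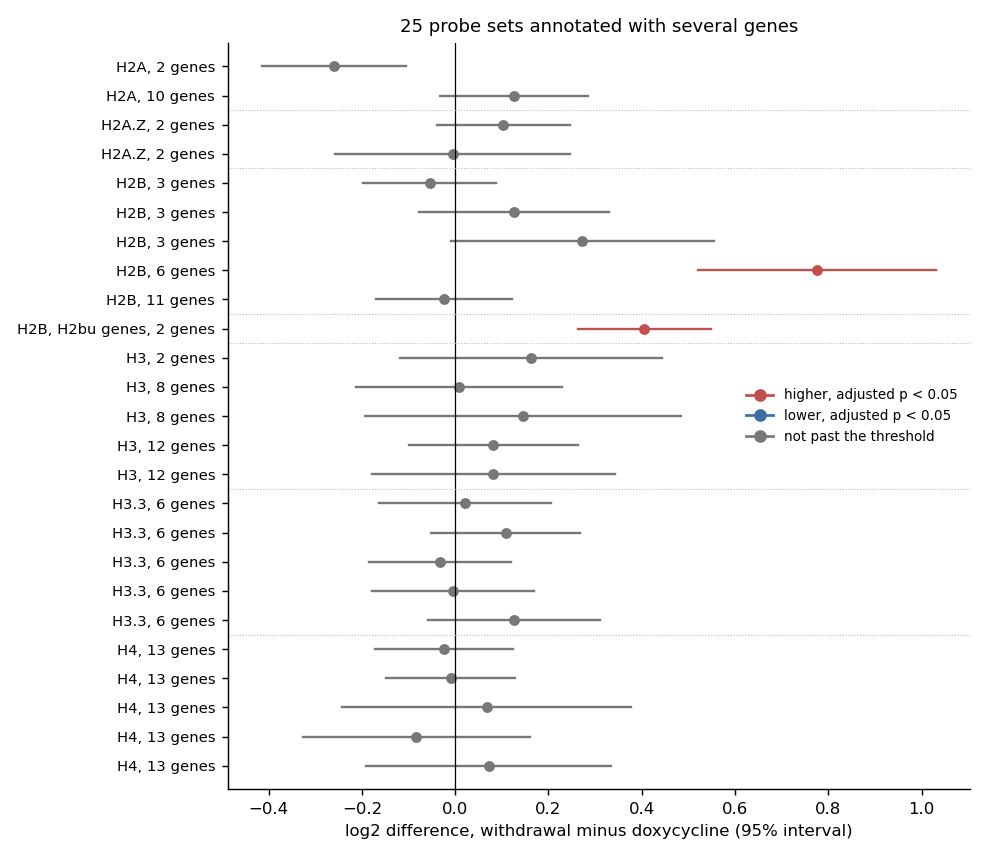
Difference (withdrawal minus doxycycline, log2) of the 25 probe sets annotated with several genes, with the unadjusted 95% interval from limma (n = 3 per group), labelled by histone family and the number of genes annotated. The 2 in red, both H2B, rose, and the 5 sets of H4 and 5 of replication-dependent H3 lie between -0.08 and 0.16.

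Genes that make or handle histone mRNA were read from a list of 26, of which 23 were measured. By limma 0 rose and 0 fell, 2 had an unadjusted p under 0.05, both lower, beside 16.3% of all genes. With the trend and robust options 2 passed as lower, where 4.02% of all genes did. The median difference was -0.04. Slbp, whose product binds the stem-loop, differed by 0.07 ± 0.06 (adjusted p 0.689). Npat and Casp8ap2, components of the histone locus body where these genes are transcribed, differed by -0.05 ± 0.11 and 0.10 ± 0.09 (adjusted p 0.898 and 0.702). The sizes farthest from 0 belonged to Cpsf2, a subunit of the cleavage machinery, at -0.32 ± 0.07 (adjusted p 0.0797), and Eri1, an exonuclease of the stem-loop, at -0.22 ± 0.06 (adjusted p 0.155).

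Of 32 histone chaperone and deposition genes 27 were measured, and 0 rose and 0 fell. Of these 4 had an unadjusted p under 0.05, all lower, a share near the 16.3% of all genes. With the trend and robust options 3 passed as lower (4.02% of all genes), and the median difference was -0.007. Ipo4, an importin for H3 and H4, was at -0.50 ± 0.10 (adjusted p 0.057), and Nap1l1, a chaperone of H2A and H2B, at -0.29 ± 0.07 (adjusted p 0.0838). Ipo4 passed under 4 of the other settings and Nap1l1 under 4, but with 1 array left out adjusted p was 0.0972 to 0.208 for Ipo4 and 0.107 to 0.264 for Nap1l1.

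Since replication-dependent histone mRNA is made in S phase, 40 genes of DNA replication were read beside it. Of the 39 measured, 0 rose and 0 fell by limma, and 5 were higher and 1 lower at an unadjusted p under 0.05, a share near the 16.3% of all genes. With the trend and robust options 1 passed as higher, where 3.48% of all genes did. Their differences ran from -0.18 to 0.23 with a median of 0.05. Gins2 and Gins1, subunits of the replicative helicase complex, were at 0.23 ± 0.07 and 0.21 ± 0.07 (adjusted p 0.162 and 0.226). In bulk RNA a different share of cells in S phase and a different amount of histone mRNA per cell cannot be told apart.

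**Figure D4:**
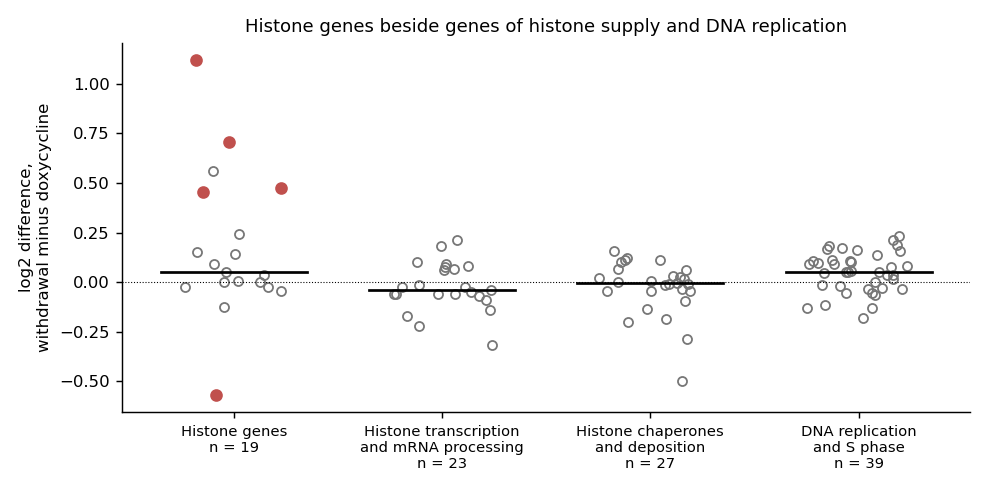
Difference of each gene (withdrawal minus doxycycline, log2, 1 point per gene from its brightest probe set) for the 19 histone genes and the 3 lists of histone supply and replication genes, with the list median as a bar and filled points for genes past the threshold. The 5 filled points are all histone genes, at -0.57 and from 0.46 to 1.12, and 0 of the 23, 27 and 39 genes of the other lists passed.

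Checks of the whole series bear on these values as follows. All 10 haematopoietic progenitor markers examined lay above the median level, and 1, Cd34, fell by 0.51 (adjusted p 0.0463), where 1.57% of all genes fell. At an unadjusted p under 0.05, 5 others were higher without passing, namely Kit at 0.26, Spi1 at 0.27, Mpo at 0.32, Cd33 at 0.24 and Csf2rb at 0.34, and the median of the 10 was 0.15. Over all genes, 16.3% had an unadjusted p under 0.05 in either direction. With the trend and robust options 3 of the 10 passed as higher and 2 as lower, where 3.48% and 4.02% of all genes did. The part of these marker differences in the histone values was not tested. Of 13 measured markers of T, B, liver, fibroblast, endothelial and epithelial cells, 5 were above the median level, 0 passed the test and 1 had an unadjusted p under 0.05. Those 5 were Cd3e, Cd4, Cd8a, Epcam and Pecam1, at the 59.0 to 89.1 percentiles. Flt3, the lowest of the 10 progenitor markers, lay below them at the 56.5 percentile, so the median level does not mark which genes are expressed. Array medians ran from 5.22 to 5.27, and the third withdrawal and first doxycycline arrays stood apart on the second principal component. Without both of these arrays H3c7 still passed (1.12, adjusted p 0.0284) and H3c4, H1f2, H3f3b and H2bc21 did not, in a fit of 4 arrays, with adjusted p of 0.0781, 0.112, 0.111 and 0.136. The 3 Mecom probe sets, dim and with differences of -0.10 to 0.13, do not check the labels, since the vector's Evi1 is codon-optimized.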

How the data were processed

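RNA of 6 samples was amplified, labelled with biotin and hybridised to 1 array each, per the labels. The deposited table holds log2 expression values made by the authors with RMA, per the submitters' processing notes; its version, the chip definition and any filters are not stated there. RMA forces arrays onto a shared distribution and compresses differences of dim transcripts.

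Of 45101 rows, 64 control probe sets were left out. The platform annotation gave 1 gene symbol for 34945 of the other 45037, several for 932 and none for 9160. All 19 member gene IDs were found in the RefSeq table of GRCm38.p6, which changed 0 symbols. The comparison used limma 3.58.1 (lmFit and eBayes, R 4.3.3) on all 6 arrays with no covariate (4 residual and 3.54 prior degrees of freedom), two-sided, adjusted by Benjamini-Hochberg over 45037 probe sets at 0.05, and intervals are unadjusted. A gene was read from its probe set with the highest mean. The script was also run on simulated independent values, without effects shared within an array, so that run does not cover such effects. The arrays' number limits the precision.

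Every histone probe set could be named. Those past the threshold and the brightest gene of each family have a value per array, and other lists name up to 4 members past the threshold and 2 with the largest difference. Slbp, Npat and Casp8ap2 were named for their roles, Cd34 and 5 other progenitor markers by their p, and H3c11, H2ax and the sets of several genes after their values were seen. Members and lists were chosen with earlier results of these data known. Alternatives left out each array, added the replicate number, filtered dim probe sets, centred or renormalized arrays, used trend and robust eBayes, array weights, averaged probe sets per gene or plain probe sets. A fit on 4 arrays and one without x and s probe sets were added after seeing the data. Whether the replicate numbers shared by the groups pair the samples is not known.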

Additional observations from a re-analysis of the deposited data

How the results depend on the processing

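The histone probe sets that rose (4) numbered 1 to 3 and those that fell (1) 0 to 1 when each array was left out in turn, and the counts of genes were the same. Without the third doxycycline array only H3c7 remained. With the replicate number as a block 2 rose and 0 fell, by probe set and by gene, where H3c7 and H3c4 passed and H1f2, H3f3b and H2bc21 did not (adjusted p 0.0831, 0.0746 and 0.0584). Same-numbered arrays had correlated deviations of -0.30, 0.46 and -0.03, and these few values cannot settle whether the numbers pair the samples. On 4 arrays, chosen after seeing the data, 1 rose and 0 fell. With probe sets averaged per gene 0 fell. With only plain probe sets or without x and s probe sets 0 fell too, but these settings leave out the probe set that fell, so they do not check it. Centring the arrays left H3f3b at an adjusted p of 0.0519.

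Genes of histone transcription and processing that fell (0) became 2 among probe sets above the median level and with the trend and robust options, and 1 with array weights or averaged probe sets. Chaperone genes that fell (0) became 2, 3, 2 and 1 under the same settings, and 1 with quantile normalization repeated. S phase genes that rose (0) became 1 with the level filter and with the trend and robust options. Signs turned for the dimmest H1f2 probe set (-0.26 to 0.18 with arrays left out), for Npat (-0.167 to 0.0523, and 0.0857 on 4 arrays) and for Slbp (-0.0138 by the mean of its probe sets). The cause was not tested. Centring or renormalizing moved no named difference by more than 0.0238. With 3 arrays per group, small differences and dim probe sets such as those of the germ cell genes are weakly bounded.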

Other observations

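Among other chromatin genes outside the histone names, looked at after their values were seen, Hmgn3, a nucleosome-binding protein of the HMGN family, rose on both of its probe sets. One lay between 9.76 and 9.82 in the doxycycline arrays and between 10.42 and 10.47 in the withdrawal arrays, a rise of 0.66 ± 0.06 (limma, adjusted p 0.00302). The other lay between 8.54 and 8.57 under doxycycline and between 9.26 and 9.46 after withdrawal, a rise of 0.80 ± 0.07 (adjusted p 0.00274). Both calls held with each of the 6 arrays left out in turn and were lost on 4 arrays (adjusted p 0.0596 and 0.0749). Its relatives Hmgn1 and Hmgn5 did not pass, with differences of 0.01 to 0.11 on the 4 probe sets of Hmgn1 and -0.05 for Hmgn5.

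Macroh2a1, which encodes the large H2A variant macroH2A1, lay between 12.50 and 12.52 under doxycycline and between 12.22 and 12.25 after withdrawal. These groups did not overlap, and the difference of -0.28 ± 0.06 had an adjusted p of 0.0735, which was 0.0152 among probe sets above the median level, 0.000316 with the trend and robust options and 0.0349 with array weights, and at most 0.253 over all alternatives. Cenpa, the H3 variant of centromeres, differed by -0.007 on its brightest probe set (adjusted p 0.977). Hmgb2, a chromatin protein of dividing cells, differed by 0.21 ± 0.07 on its brightest probe set, with groups apart and an adjusted p of 0.219.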
